A study of Homo sapiens with 6 samples.

Results

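The islands of human chromosome 3 that were enriched in NFATc2 chromatin immunoprecipitates (IP) over input DNA are described here, in untreated THP-1 cells. An island is a stretch of neighbouring 200 bp windows in which the caller found more IP reads than the scaled input gave. The islands were selected on position alone, as all rows of the called list on chromosome 3 of the build hg19, and number 4014 of 32760 (12.3%). Each had already been chosen by its own IP and input reads, through a false discovery rate (FDR) under 0.05, so that number, fold and width are descriptions of chosen regions and carry no test.

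Chromatin was taken from THP-1, an established human monocytic line of acute myeloid leukaemia that carries an MLL-AF9 fusion, grown in RPMI medium without treatment. The NFATc2 IP group has 3 libraries, made with a rabbit monoclonal antibody against NFAT1 (another name of NFATc2), and the Input DNA group has 3 libraries of sonicated DNA that was not precipitated. Both groups come from formaldehyde-fixed cells of this one line, no line without NFATc2 is among the samples, and rabbit IgG precipitates were not analysed here. All 6 libraries went into a single pooled call, so the list has 1 value per island, no spread between replicates can be given, and islands of one pooled list are not replicates of each other.

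NFATc2 is a transcription factor of the nuclear factor of activated T cells family. Calcium entry activates the phosphatase calcineurin, which removes phosphates from the cytoplasmic protein and lets it move to the nucleus, where it binds DNA, often beside partner factors. A factor of this kind usually gives narrow sites at promoters and enhancers, whereas broad island callers were built for diffuse signals such as histone marks, and join neighbouring windows across short gaps. Chromosome 3 is a large chromosome with arms of similar length, 3p and 3q, on either side of the centromere, which the assembly of this build holds as a run of unread bases.

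Chromosome 3 held more islands for its length than most autosomes. It had 20.3 islands per Mb of the 197.9 Mb up to the end of its last island, against 10.8 per Mb for the 28669 islands on the other 21 autosomes. The ratio was 1.89, with a 95% counting interval of 1.82 to 1.95 that treats islands as independent. The chromosome made up 6.91% of the autosomal span and held 12.3% of the 32683 autosomal islands. Per Mb it stood at rank 3 of 22, below chromosome 6 with 30.6 and level with chromosome 13 with 20.3, and above chromosome 2 with 14.6 and chromosome 5 with 14.1. The median of the other autosomes was 8.05 islands per Mb, and the lowest was chromosome 22 with 0.584. In number of islands it was at rank 2, after the 5222 of chromosome 6. The islands covered 21.1 Mb, or 10.6% of its span, against 6.24% on the other autosomes, 20.7% on chromosome 6 and 11.7% on chromosome 13.

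The islands of chromosome 3 were of even width, with few at either extreme. Their median width was 4800 bp, the quartiles were 3800 and 6200 bp, and the 95th percentile was 9400 bp. The other autosomes had a median of 5000 bp, quartiles of 3800 and 6600 bp and a 95th percentile of 11800 bp. The narrowest islands on chromosome 3 were 1200 bp wide, whereas each other autosome had an island of 800 bp or less. No island of the 4014 was 1000 bp wide or less, against 139 islands (0.485%) on the other autosomes. If islands are treated as independent, a count of 0 allows a share of up to 0.0747% (3 over 4014). At the other end, 19 islands (0.473%) were 15000 bp or wider, against 700 (2.44%) on the other autosomes and 265 (5.07%) on chromosome 6. The median share of the other autosomes was 1.47%. Chromosome 4 was lower, with 0.261%, and chromosomes 10 and 15 were close, with 0.541% and 0.704%.

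Enrichment was small in nearly every island. The median log2 fold change, taken between IP and scaled input reads, was 0.42, a 1.34-fold excess, with quartiles of 0.32 and 0.55 and a range of 0.12 to 1.95. On the other autosomes the median was 0.39, with quartiles of 0.29 and 0.53. The reads behind these folds were recovered from the deposited fold and p-value. A chromosome 3 island held a median of 143 pooled IP reads (quartiles 119 and 182) and 189 input reads (quartiles 150 and 248), and the input reads are multiplied by 0.562 before the comparison. At this depth the 95% counting interval of a single island's log2 fold change had a median width of 0.65, wider than the gap between the quartiles. The lower bound of the interval lay above 0 in 3156 islands (78.6%), above 0.5 in 132 and above 1 in 4. Intervals cover counting error only, since reads of one PCR-amplified library are not independent molecules and the 3 libraries of a group cannot be separated.

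Among the autosomes the fold of the chromosome 3 islands was in the middle by median, and higher when their reads were summed. By median it stood at rank 10 of 22, with 0.42 against a median of 0.42 over the other autosomes, which ran from 0.33 on chromosome 6 to 0.60 on chromosome 18. Chromosome 13 had 0.37, chromosome 2 had 0.40 and chromosome 5 had 0.41. A log2 fold change above 0.5 was reached by 1337 islands (33.3%), where the background on the other autosomes was 28.8%. By that share the chromosome stood at rank 11. From the summed reads of all its islands the log2 fold change was 0.424, at rank 5, against 0.361 over the other autosomes together. An FDR under 0.001 was reached by 2043 islands (50.9%), against 46.3% on the other autosomes.

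The distributions of fold on both arms and on the other autosomes overlapped over most of their range. The main visible difference was at the low end, where the other autosomes had more islands with a log2 fold change under 0.3.

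Input DNA was evenly spread over the islands of chromosome 3. The median was 40.0 input reads per kb, with quartiles of 37.0 and 43.3, and 30.5 IP reads per kb, with quartiles of 28.5 and 32.9. The other autosomes had medians of 42.5 input and 31.7 IP reads per kb. Input reads per kb fell between 0.8 and 1.2 times the median in 89.5% of the chromosome 3 islands, against 77.4% on the other autosomes around their own median. The second share pools autosomes whose single medians ran from 33.8 to 47.5, and it was not taken for each autosome. Chromosome 3 stood at rank 14 of 22 for median input reads per kb, and chromosome 6 was highest with 47.5. DNA copy number in THP-1 sets input and IP reads alike, and its part in the number of islands called was not tested.

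Along the chromosome, islands were found nearly everywhere, in a wave of dense and sparse stretches. The 39 whole bins of 5 Mb held 28 to 178 islands, with a median of 93. No bin had fewer than 20 islands, which was also so on chromosome 15, whereas on the other autosomes the median share of such sparse bins was 38.5%. That share was 5% on chromosome 13 and 8.33% on chromosomes 5 and 20. A fixed limit of 20 is passed more easily where a chromosome has many islands per Mb. The standard deviation of the bin counts was 0.413 times their mean, and chromosome 15 with 0.377 was the one autosome with a lower value. Of 198 bins of 1 Mb, 2 were empty, both at the centromere, the median was 20 islands and the highest count was 47, in the bin that starts at 85 Mb.

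**Figure D1:**
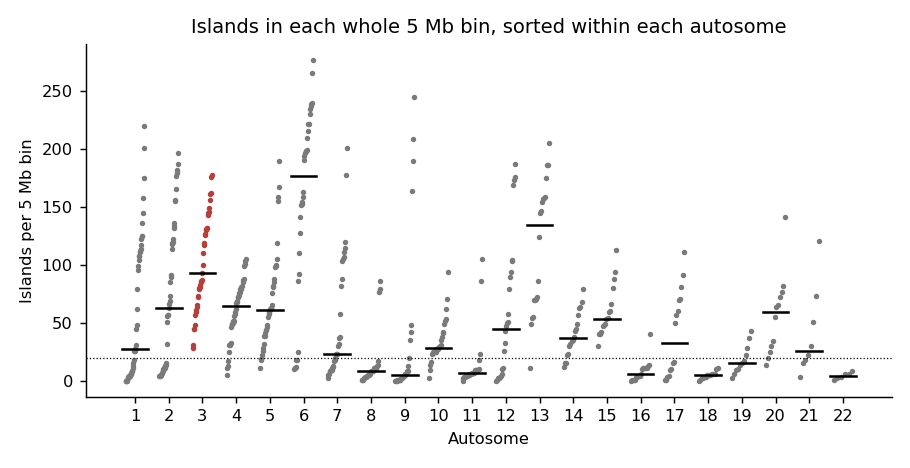
Islands in each whole 5 Mb bin of each autosome (one point per bin, sorted by count within the autosome), with the median as a black bar and a dotted line at 20 islands. The 39 red points of chromosome 3 run from 28 to 178, all above the dotted line.

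The densest bins flanked the centromere and lay on distal 3q. The bins with most islands were 80 to 85 Mb with 178, 85 to 90 Mb with 176, 165 to 170 Mb with 162, 160 to 165 Mb with 161 and 100 to 105 Mb with 156. The fewest were in the bins 45 to 50 Mb with 28, 10 to 15 Mb with 31, 5 to 10 Mb and 125 to 130 Mb with 45 each, and 60 to 65 Mb with 48. Larger stretches, picked after these counts were seen, show the same wave. There were 26.8 islands per Mb at 15 to 30 Mb, 11.5 at 40 to 75 Mb, 32.2 from 75 Mb to the last island of 3p, and 27.7 at 140 to 180 Mb. The sparse stretch at 40 to 75 Mb was thus close to the 10.8 per Mb of the other autosomes, and the dense ones were above the chromosome's own 20.3.

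The bins differed in how many islands they held and hardly in what those islands were like. Island counts spanned 28 to 178 and the covered share 2.78% to 19.7%, but the bin medians of the log2 fold change stayed between 0.37 and 0.49, those of width between 4000 and 5400 bp, those of input between 37.3 and 41.7 reads per kb and those of IP between 28.9 and 31.6 reads per kb. The bin at 80 to 85 Mb, with 178 islands, had a median log2 fold change of 0.44 and 40.1 input reads per kb, and the bin at 45 to 50 Mb, with 28, had 0.38 and 40.2. Over the 39 bins, Spearman's rho between island count and median fold was 0.04, and that between count and median input was 0.26. Within their narrow ranges, median fold and median input went in opposite directions, with a rho of -0.68. These are descriptions over neighbouring bins of the same libraries and depth. On the other 14 autosomes with at least 10 bins of 10 or more islands, rho between count and fold ran from -0.79 to 0.33, with a median of -0.41.

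**Figure D2:**
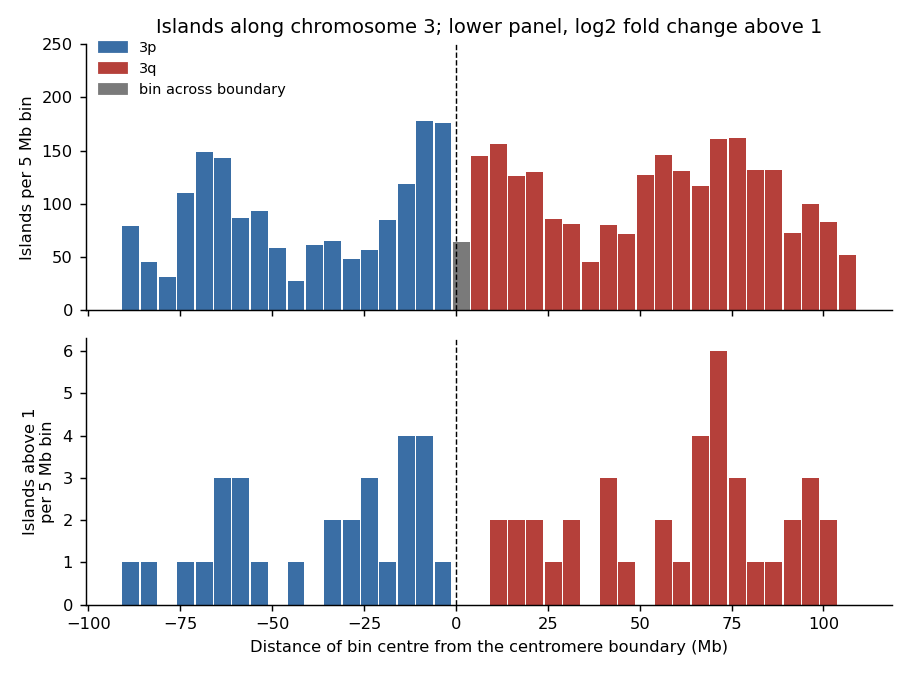
Islands (upper panel) and islands above a log2 fold change of 1 (lower panel) in 5 Mb bins of chromosome 3, by the distance of the bin centre from the centromere boundary at 91 Mb; 3p in blue, 3q in red, the bin across the boundary in grey, and the last bin is not whole. Counts rise to 178 just before the boundary and fall to 28 on the middle of 3p, and the lower panel reaches 6 on distal 3q.

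There were more islands on 3q than on 3p, for its length too. With the boundary at 91 Mb, 3p held 1640 islands and 3q held 2374, so that 3q had 59.1% of the islands on 54.0% of the span. Density was 18.0 islands per Mb on 3p and 22.2 on 3q, a ratio of 1.23 with a 95% counting interval of 1.16 to 1.31. Because counts swing from bin to bin by far more than this ratio, the interval understates the spread along the arms. Islands covered 9.40% of 3p and 11.7% of 3q. Median width was 4800 bp on both arms, the median log2 fold change was 0.43 on 3p and 0.42 on 3q, and median input was 39.6 and 40.3 reads per kb. A log2 fold change above 0.5 was reached by 35.2% of the islands on 3p and 32.0% of those on 3q.

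The outer end of each arm held fewer islands than its end beside the centromere. The first 10 Mb of islands on 3p held 125 with 6.29% of the stretch covered, and the last 10 Mb before the centromere held 361 with 19.8% covered. On 3q the first 10 Mb of islands after the centromere held 288 (15.7% covered) and the last 10 Mb held 191 (9.61% covered). The first island of the chromosome was at chr3:270201-279200, with 237 IP and 333 input reads, at a log2 fold change of 0.34. The last was at chr3:197851801-197854600, with 103 IP and 140 input reads and 0.39.

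Islands usually had a close neighbour. Of the 4013 gaps between consecutive islands, 73.9% were 50 kb or shorter, the median was 23.2 kb and the quartiles were 8.6 and 51.8 kb. The shortest gap was 800 bp, found 98 times, which is the shortest that the caller left unjoined in this list on the chromosome. Median gaps were 24.4 kb on 3p and 22.4 kb on 3q. The longest gap was at chr3:90504601-93510400, 3.01 Mb that span the centromere, where no island can be called on unread bases. The next were chr3:48362001-49408400 with 1.05 Mb, chr3:12661401-13629000 with 0.968 Mb, chr3:50038601-50809400 with 0.771 Mb and chr3:41937001-42609200 with 0.672 Mb, all on 3p. On 3q the longest gap was 0.621 Mb. From 48 to 51 Mb there were 14 islands in all, 4.67 per Mb. Gaps of at least 1 Mb numbered 2 on chromosome 3, against a median of 11 and up to 42 on the other autosomes. Chromosome 13 had 0 and chromosome 15 had 1.

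Runs of islands with gaps of 50 kb or less were taken as clusters. There were 1047, of which 388 were single islands, and 460 lay on 3p and 587 on 3q. Clusters of 10 or more islands numbered 75 and held 1284 islands, 32.0% of the chromosome, with 31.7% on 3p and 32.2% on 3q. Chromosome 13, level with it in islands per Mb, had 49.7% of its islands in such clusters, chromosome 2 had 42.8% and chromosome 5 had 28.9%. These shares are given without a test.

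One cluster stood far above the rest. It ran over chr3:84115201-85728000 on 3p, with 77 islands on 1612.8 kb, 27.1% of it covered, and 13285 IP against 17739 input reads. Its median log2 fold change of 0.42 was that of the whole chromosome, and 1 of its islands was above 1. The next had fewer than 40 islands each: chr3:165456001-166110000 held 37, chr3:21932001-22689200 held 36, chr3:80793001-81451200 held 33 and chr3:29386201-30085000 held 32. Their median log2 fold changes were 0.44, 0.43, 0.49 and 0.49. Input in these 5 clusters was 37.6 to 41.3 reads per kb, near the chromosome's median of 40.0.

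The islands next to the centromere on 3p carried more input than the rest. The last 16 islands of 3p, each within 20 kb of the next, lay at chr3:90288401-90504600 and covered 53.6% of that stretch. Their median was 57.4 input reads per kb, 5 of them held over 2 times the chromosome's median input, and their median log2 fold change was 0.30. The widest island of the chromosome was among them, chr3:90389801-90421800, 32000 bp with 1137 IP and 1829 input reads, at a log2 fold change of 0.15. The last island of 3p, chr3:90497401-90504600, had 290 IP and 368 input reads and 0.49. Across the centromere, the first island of 3q, chr3:93510401-93516000, had 272 IP and 405 input reads, 72.3 input reads per kb and 0.26. Whether reads beside the unread stretch were placed uniquely was not tested.

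In the whole chromosome 9 islands (0.224%) held over 2 times the median input per kb, against 0.931% on the other autosomes around their own median. The extreme was chr3:196625601-196627200 on 3q, 1600 bp wide, with 1658 IP and 2627 input reads, the most of any chromosome 3 island. It had 1642 input and 1036 IP reads per kb and a log2 fold change of 0.17 (0.08 to 0.26). Its height was thus in the input as much as in the IP. The island at chr3:90456001-90463600 was also high, with 841 IP and 1121 input reads and 0.42. Of these 9 islands, one passed a log2 fold change of 1, chr3:183867001-183868400 with 201 IP and 151 input reads and 1.24.

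The other wide islands were shallow rather than high. The island at chr3:83706201-83735000 was 28800 bp wide and had 860 IP and 1243 input reads, with a log2 fold change of 0.30. That at chr3:157017201-157037600 was 20400 bp wide, with 526 and 826 reads and 0.18. The islands at chr3:88525601-88544400 (18800 bp, 590 and 767 reads) and chr3:68826001-68844600 (18600 bp, 491 and 679 reads) had 0.45 and 0.36. In all 4 the input was within 36.5 to 43.2 reads per kb, so they were wide at ordinary depth.

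Fold fell with width. The 429 islands of up to 3000 bp had a median log2 fold change of 0.64, the 1862 of over 3000 to 5000 bp had 0.45, the 1360 of over 5000 to 8000 bp had 0.38 and the 363 wider ones had 0.31. Spearman's rho between width and fold was -0.44 over the 4014 islands. The call itself asks a higher fold of an island with few reads, so this slope is part of how the islands were chosen. On the other autosomes the medians of the same classes were 0.56, 0.43, 0.35 and 0.25.

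A log2 fold change above 1, the limit that the study set for a peak, was passed by 67 islands of chromosome 3 (1.67%). The background was 1.58% of all islands (517 of 32760) and 1.53% on the other autosomes (438 of 28669). Over islands of all widths, the share on chromosome 3 was thus near the background. The widths behind these shares differ, since 84 of the 438 were 1000 bp wide or less, a class that chromosome 3 lacks. Among the wider islands of the other autosomes 354 passed 1 and 28176 did not. That is a smaller share than on chromosome 3, where 67 passed and 3947 did not. By its share over all islands the chromosome stood at rank 15 of 22. By number it stood first, and per Mb too, with 0.339 against up to 0.306 on the other autosomes. The arms held 29 (1.77% of the islands of 3p) and 38 (1.60% of those of 3q), or 0.319 and 0.356 per Mb.

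Most of these 67 islands lay close to the limit. The middle one was at 1.12 on the log2 scale, the quartiles lay at 1.04 and 1.24, and 2 (0.0498% of the chromosome's islands) passed 1.5, against 51 (0.178%) on the other autosomes. Of those 51, 16 were wider than 1000 bp, as all islands of chromosome 3 were. The highest was chr3:33857201-33858400 on 3p, 1200 bp with 63 IP and 29 input reads, at a log2 fold change of 1.95, a 3.87-fold excess (95% counting interval on the log2 scale 1.295 to 2.639). The next was chr3:189628001-189630000 on 3q, 2000 bp with 85 and 45 reads and 1.75 (1.21 to 2.30). Both had few input reads, 24.2 and 22.5 per kb against the median of 40.0. Then came chr3:181136401-181139600 with 126 and 83 reads and 1.43 (1.02 to 1.85), chr3:47016801-47018400 with 71 and 47 reads and 1.43, and chr3:57205801-57207800 with 79 and 55 reads and 1.35.

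The island with the most IP reads above 1 was chr3:61728001-61731000 on 3p. It held 245 IP and 173 input reads on 3000 bp, with a log2 fold change of 1.33 (1.05 to 1.62) and the largest −log10 FDR of the chromosome, 33.0. Its IP density, 81.7 reads per kb, was far over the median of 30.5, and its input, 57.7 per kb, was also raised. With the 3 highest by fold, it made up the 4 islands whose counting interval lay wholly above 1. The remaining islands of the 10 highest were chr3:39616001-39618600 (103 and 73 reads, 1.33), chr3:84604801-84606800 (86 and 61, 1.33), chr3:25208401-25211600 (118 and 85, 1.31) and chr3:3098401-3100800 (95 and 69, 1.29). Of the 10 highest, 8 were on 3p.

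The limit itself cut through a continuous range. Just above 1 were chr3:158692801-158696000 with 124 IP and 110 input reads (1.00), chr3:120015601-120018000 with 88 and 78 (1.01) and chr3:114439601-114442000 with 96 and 85 (1.01). Just below were chr3:81975801-81978000 with 83 and 74 reads (0.997), chr3:147557601-147561200 with 122 and 109 (0.994) and chr3:29575801-29578600 with 96 and 86 (0.991). A single IP read more or less would move any of these 6 across the limit, and the counting interval of the first one ran from 0.62 to 1.39. At the FDR limit of 0.05 the last islands inside were chr3:82073601-82078200 with 131 and 198 reads, chr3:122593201-122598000 with 142 and 216, and chr3:34431201-34436200 with 156 and 239. Their log2 fold changes were 0.24, 0.23 and 0.22, and islands outside this limit are not in the list.

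Islands above 1 had more IP and less input per kb than the rest, and at like width the larger difference was in input. The 67 islands had a median of 39.4 IP reads per kb against 30.4 in the other 3947, a ratio of 1.29 (0.37 on the log2 scale), and 31.9 input reads per kb against 40.1, a ratio of 0.794 (-0.33 on the log2 scale). Of the 67, 59 (88.1%) lay under the chromosome's median input per kb and 66 lay above its median IP per kb. Among islands of up to 3000 bp the 54 above 1 differed from the 375 others more in input, with 32.4 against 43.0 reads per kb (-0.41), than in IP, with 40.0 against 36.3 (0.14). On the other autosomes, among islands of over 1000 to 3000 bp, the 234 above 1 had 33.3 input reads per kb against 45.9 in the 3271 others (-0.46), and 41.5 IP reads against 37.3 (0.15). The limit was set on this same ratio, so these values describe what it picked.

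The islands above 1 were narrow, 1200 to 4400 bp wide with a median of 2600 bp, against 4800 bp for the rest. By width, 54 were of up to 3000 bp and 13 of over 3000 to 5000 bp, and none of the 1723 wider islands passed 1. In the narrowest class 12.6% passed 1 on chromosome 3 and 8.73% on the other autosomes, and in the next class 0.698% and 0.966%. The 8.73% includes islands of 1000 bp or less. Of over 1000 to 3000 bp, 234 islands on the other autosomes passed 1 and 3271 did not, a share below 8.73%. On chromosome 3 these counts were 54 and 375. On the other autosomes 84 of the 438 were 1000 bp wide or less, a class that chromosome 3 lacks, and leaving these out their median width was 2600 bp too.

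They were scattered along both arms. They were found in 32 of the 39 whole bins, with at most 6 in a bin, at 160 to 165 Mb. The median spacing from one to the next was 2.10 Mb, the closest pair was 54.3 kb apart, and 20 spacings were under 1 Mb. The largest spacing, 12.9 Mb, ran across the centromere, from 87927800 to 100854201, and the 309 islands in it reached at most 0.97. Spearman's rho over bins between the number of islands and the number above 1 was 0.34. Of the 67, 18 (26.9%) lay in clusters of 10 or more, where 32.0% of all islands lay, and 10 (14.9%) stood alone, against 9.58% of the other islands.

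The neighbours of a high island were ordinary. No island above 1 was next to another one. The 131 islands beside them had a median log2 fold change of 0.41, against 0.42 in the remaining islands at or below 1, and a median of 40.0 input reads per kb. Over all pairs of consecutive islands, Spearman's rho was 0.01 for the log2 fold change and 0.17 for input reads per kb. For fold the other autosomes ran from 0.01 to 0.39, with a median of 0.11, so that chromosome 3 was at the low end in the likeness of neighbours.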

How the data were processed

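NFATc2 IP (n = 3) and Input DNA (n = 3) libraries of THP-1 cells were sequenced by the authors. Tools listed in the submitters' processing notes are SICER 0.0.52, SAMtools 1.3.1, BWA 0.7.17.1, ChIPseeker 1.18.0 and Trimmomatic 0.36.5, with the build hg19. The study names epic2, an implementation of the SICER method, as the caller. The islands deposited were called on the pooled libraries at FDR below 0.05, so each value pools the replicates. Peaks in blacklisted regions, which the study left out, were not removed here. The total depth of the libraries is unknown.

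The deposited log2 fold change of each island is IP over scaled input reads. The score made by the authors is the whole part of 100 times that value. The deposited −log10 p-value and −log10 FDR come from the caller. Starts were counted from 1.

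Pooled IP and input reads were worked out by inverting the Poisson p-value at the given fold, at a scaling factor of 0.562. Input reads came out whole within 0.02 in all 4014 islands of chromosome 3, and on 1985 simulated islands the reads were recovered in 100%. Counting error is given as 95% intervals (Clopper-Pearson, exact).

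Density was taken per Mb from position 1 to the last island end, with the arms divided at 91 Mb. Bins were 5 and 1 Mb, and clusters were runs with gaps up to 50 kb. No test was run, since the list has no replicates and was selected on the same contrast. Islands, bins, clusters and gaps were named by fixed ranks (the 10 highest folds, the 5 widest, the 5 with most IP reads, those at the ends, the centromere and the limits, and the 5 bins, clusters and gaps at the extremes), chosen with earlier results of these data known. The 20 kb run at the centromere, the larger stretches and the island at chr3:183867001-183868400 were picked after their values were seen. Genes and sequences at the islands were not analysed here, as the annotation given is of another build. The software was pandas 2.3.3, scipy 1.17.1 and numpy 2.4.6 under Python 3.11.15, with figures by matplotlib 3.10.9.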

Additional observations from a re-analysis of the deposited data

How the results depend on the processing

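Alternatives were run for 7 results: the number of islands, the ratios to the other autosomes and between the arms, median width and fold, the number above 1 and the number of clusters. Both ratios stayed above 1 in every alternative. The other results are counts or medians, which have no direction to reverse. The share above a limit did turn. Above 1 it was 1.67% on chromosome 3 and 1.53% on the other autosomes, but above 1.5 it was 0.0498% (2 islands) and 0.178% (51 islands). Of those 51, only 16 were wider than 1000 bp, so most were in a width class that chromosome 3 lacks. The count of 4014 islands was 2043 at FDR under 0.001, 3148 at FDR under 0.01, 3916 with islands under 1 kb apart merged and 3393 with those under 5 kb apart merged. The ratio of islands per Mb to the other autosomes, 1.89, was 2.08 at FDR under 0.001, 2.18 above a log2 fold change of 0.5, 2.06 above 1, 1.98 after merging within 5 kb and 2.52 against the median of the other autosomes. Without chromosome 6, an alternative chosen after seeing the data, it was 2.16. With chromosome lengths of GRCh38 it was 1.89. The ratio of 3q to 3p, 1.23, was 1.12 above a log2 fold change of 0.5, 1.16 at FDR under 0.001, 1.32 without the 5 Mb on either side of the boundary, and 1.26 without the length of the island-free stretch there, also chosen after seeing the data. The median log2 fold change rose from 0.42 to 0.55 at FDR under 0.001, where the median width was 4800 bp. The 67 islands above 1 became 122 at a limit of 0.9 and 41 at 1.1, and 132 had a lower counting bound above 0.5. Clusters numbered 2194 with gaps up to 20 kb and 402 with gaps up to 100 kb, against 1047. No paired analysis was possible because both groups were pooled before the call, and leaving out a library could not be run for the same reason. A median of 143 IP and 189 input reads per island limits what single folds can show.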
